A study of Mus musculus with 8 samples.

Results

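Protein kinase C (PKC) is a family of serine and threonine kinases that relay signals from lipid and calcium messengers. The 8 isoform genes described here, Prkca, Prkcb, Prkcd, Prkce, Prkch, Prkcq, Prkci and Prkcz, were listed by name and matched to the gene symbols of the files. All 8 were among the 23284 genes counted, and 7 of them passed the filter on low counts. The list was chosen by the log2 difference between the groups in these same libraries, above all that of Prkcb, so the isoforms' own differences are given as a description with no test. RNA was sequenced from 8 libraries of preSC cells, which are cultured mouse neuroendocrine lung cells at a stage before small cell lung cancer. Of these, 4 were from cells transduced with a guide RNA against Max (MaxKO) and 4 from cells transduced with a control guide (Ctrl). MAX is the obligate partner of the MYC transcription factors and also pairs with the repressors MNT, MGA and the MXD proteins. Both groups shared the rest of the genotype: Chga-GFP, a fluorescent reporter of a neuroendocrine gene, with Rb lox/lox, p53 lox/lox and p130 lox alleles, with the strains given as 129/SvJ and C57BL/6. In both groups the cells were a polyclonal mixture, kept after puromycin selection and left untreated. How many alleles were edited is not known here. Whether libraries of 1 group represent separate cultures is not stated, so a p-value reflects the spread among libraries, and that spread may be technical.

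The libraries held 14952291 to 19480947 reads counted in genes in MaxKO and 13711278 to 19804949 in Ctrl. Levels are given in CPM, counts scaled to library size with TMM factors. A count of 0 allows a level of up to 0.151 to 0.220 CPM, depending on the library, which is that of 3 counts and covers counting error only. Max itself was at 42.3, 42.3, 59.1 and 68.0 CPM in MaxKO and at 65.5, 70.2, 75.2 and 61.9 CPM in Ctrl, a difference of -0.37 on the log2 scale that was not called by edgeR's quasi-likelihood test (adjusted p = 0.0955 after Benjamini and Hochberg). The groups overlapped for Max, and a count over the whole gene does not show how many alleles were edited. Ctrl libraries 3 and 4 stood apart from Ctrl 1 and 2, with 23.3% and 23.4% of reads outside annotated exons, against 18.5% and 18.6%. They were not a close pair themselves. The Pearson correlation of log2 CPM was 0.983 between Ctrl 3 and 4, against 0.995 between Ctrl 1 and 2. Ctrl 4 correlated at 0.982 to 0.983 with the other Ctrl libraries and at 0.980 to 0.982 with the MaxKO libraries. Neuroendocrine markers were high in both groups, with 8 markers summing to 6341 to 7084 CPM in MaxKO and 5632 to 7719 CPM in Ctrl; Uchl1 rose and Chgb fell among them.

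PKC isoforms fall into 3 classes. Classical isoforms are switched on by calcium together with diacylglycerol, calcium-independent isoforms by diacylglycerol alone, and atypical isoforms by neither, as they act in complexes with polarity proteins. Diacylglycerol is released when phospholipase C cleaves a membrane phosphoinositide below G protein-coupled and tyrosine kinase receptors. In neurons and neuroendocrine cells, PKC is known for promoting the release of secretory vesicles.

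Prkcb, the classical isoform PKC beta, was the isoform with the largest difference. It was at 29.9, 31.0, 34.0 and 27.7 CPM in MaxKO libraries 1 to 4 and at 111, 97.7, 144 and 125 CPM in Ctrl libraries 1 to 4. Every MaxKO library lay below every Ctrl library, and the lowest Ctrl value, in library 2, was still far above the highest MaxKO value, in library 3. The means were 30.6 ± 2.63 CPM in MaxKO and 119 ± 19.9 CPM in Ctrl (SD, n = 4 each), a log2 difference of -1.96 (SE 0.12), or 3.89-fold lower in MaxKO. The counts behind these values were 1976 reads in all MaxKO libraries and 8022 in all Ctrl libraries. Within Ctrl, libraries 3 and 4 were higher than 1 and 2, and the log2 difference was -2.14 with Ctrl 3 and 4 alone and -1.77 with Ctrl 1 and 2 alone. Of all 13358 genes tested, 121 (0.906%) had a log2 difference as low as or lower than that of Prkcb. In bulk RNA, fewer cells with the transcript and less transcript per cell cannot be told apart.

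Prkca, which encodes PKC alpha, the other classical isoform on the list, was at 93.6, 109, 97.2 and 100.3 CPM in MaxKO and at 111, 107, 108 and 132 CPM in Ctrl. The groups overlapped, because MaxKO library 2 lay above Ctrl libraries 2 and 3. The log2 difference of Prkca was -0.20 (SE 0.09), with means of 100.1 ± 6.79 CPM in MaxKO and 115 ± 11.8 CPM in Ctrl (SD, n = 4 each).

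**Figure D1:**
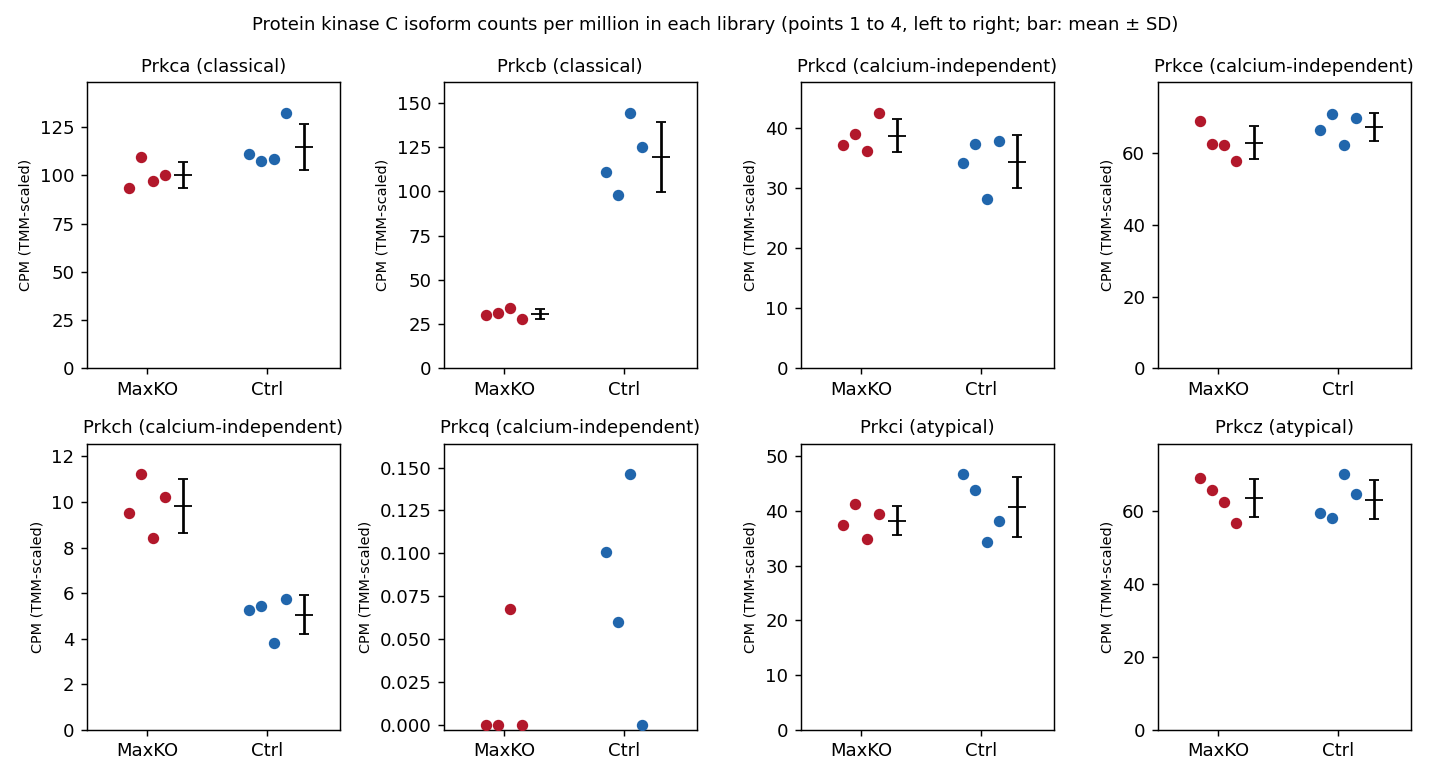
TMM-scaled CPM of the 8 listed PKC isoforms in each MaxKO (red) and Ctrl (blue) library, with libraries 1 to 4 from left to right in each group and the mean ± SD as a black bar (not drawn for Prkcq, which had 0 to 2 reads a library). The 4 MaxKO libraries lie at 27.7 to 34.0 CPM for Prkcb, below the Ctrl libraries at 97.7 to 144 CPM, whereas the groups overlap for Prkca, Prkcd, Prkce, Prkci and Prkcz.

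Among the calcium-independent isoforms, Prkch differed in the opposite direction to Prkcb. Prkch encodes PKC eta, an isoform typical of epithelia. It was at 9.5, 11.2, 8.40 and 10.2 CPM in MaxKO and at 5.23, 5.41, 3.81 and 5.72 CPM in Ctrl. All MaxKO libraries lay above all Ctrl libraries, and Ctrl library 3 was the lowest of the 8. The means were 9.83 ± 1.18 CPM in MaxKO and 5.04 ± 0.849 CPM in Ctrl (SD, n = 4 each), a log2 difference of 0.95 (SE 0.15), or 1.94-fold higher in MaxKO, from 635 reads in MaxKO and 348 in Ctrl.

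The other detected calcium-independent isoforms overlapped between the groups. Prkcd, which encodes PKC delta, a kinase linked to apoptosis, was at 37.2, 38.9, 36.2 and 42.4 CPM in MaxKO and at 34.1, 37.2, 28.2 and 37.8 CPM in Ctrl (log2 difference 0.17, SE 0.10). Ctrl library 3 alone lay well below the rest. Prkce, which encodes PKC epsilon, was at 69.1, 62.6, 62.4 and 57.8 CPM in MaxKO and at 66.4, 70.9, 62.2 and 69.8 CPM in Ctrl (-0.10, SE 0.08). Prkcq, which encodes PKC theta, the isoform of T cells and muscle, had 1 read over the 4 MaxKO libraries and 5 reads over the 4 Ctrl libraries. It was under the limit of 3 counts in every library and was the isoform left out by the filter, so no fold is given. Markers of blood cells, which express Prkcb and Prkcq, were mostly near 0. Of 7 such genes, Pf4 had no read in any library and Ptprc reached at most 0.12 CPM. Cd68 was the highest, at 3.22 ± 0.741 CPM in MaxKO and 4.24 ± 1.21 CPM in Ctrl (SD, n = 4 each). Cd79a was at 0.264 ± 0.111 CPM in MaxKO and 0.547 ± 0.0882 CPM in Ctrl. The whole list summed to 2.79 to 4.40 CPM in MaxKO and 2.97 to 6.37 CPM in Ctrl.

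The atypical isoforms also overlapped between the groups. Prkci, which encodes PKC iota, a kinase of apical polarity complexes, was at 37.4, 41.2, 34.9 and 39.4 CPM in MaxKO and at 46.7, 43.8, 34.3 and 38.1 CPM in Ctrl. Ctrl libraries 1 and 2 lay above all MaxKO libraries, while Ctrl 3 lay below all of them. The log2 difference was -0.09 (SE 0.10) with all libraries, -0.25 with Ctrl 1 and 2 alone and 0.07 with Ctrl 3 and 4 alone, so its sign depended on the controls used. Prkcz, which encodes PKC zeta, was at 68.9, 65.8, 62.4 and 56.8 CPM in MaxKO and at 59.5, 58.2, 70.0 and 64.6 CPM in Ctrl (0.01, SE 0.09). The Prkcz count is less certain, because 951 of the 5514 distinct stretches of 50 bases in its coding transcripts (17.2%) also occur in transcripts of the annotated copy Prkcz2 (GENCODE, GRCm38). No such stretch of Prkcb, Prkca, Prkcd, Prkch or Prkcq was shared with another gene, and under 1% of those of Prkce and Prkci were.

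Of the 7 isoforms tested, 1 was called higher and 1 lower in MaxKO at an adjusted p under 0.05, beside 23.1% of all genes called in either direction (10.9% higher and 12.2% lower). The groups did not overlap for the same 2 isoforms, Prkcb and Prkch, beside 26.4% of all genes. The median log2 difference was -0.09 over the 7 isoforms and 0.00 over all genes tested. Since the isoforms were listed with this comparison known, nothing is read from these counts.

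Per length of transcript, the isoforms ranked differently in the groups. Levels were scaled to kilobases of annotated exon (GENCODE, GRCm38, which is another build than the one used for counting). In MaxKO, Prkca stood highest at 11.1 ± 0.755 CPM per kb, followed by Prkcz at 10 ± 0.822, Prkce at 8.67 ± 0.643, Prkcd at 6.97 ± 0.496, Prkci at 6.89 ± 0.490, Prkcb at 4.01 ± 0.344 and Prkch at 1.31 ± 0.157 CPM per kb. In Ctrl, Prkcb stood highest at 15.6 ± 2.60 CPM per kb, followed by Prkca at 12.8 ± 1.31, Prkcz at 9.98 ± 0.857, Prkce at 9.28 ± 0.540, Prkci at 7.34 ± 1.000, Prkcd at 6.19 ± 0.796 and Prkch at 0.670 ± 0.113 CPM per kb (SD, n = 4 each). Prkcq was last in both. Neighbours whose libraries overlapped in MaxKO were Prkca with Prkcz, Prkcz with Prkce, and Prkcd with Prkci. In Ctrl they were Prkcb with Prkca, Prkcz with Prkce, and Prkci with Prkcd. The libraries of all other neighbours in each order were apart. The order depended on the length used. With the longest coding transcript as the length, Prkcb was again at rank 1 in Ctrl but at rank 4 in MaxKO in place of rank 6. Its annotated exons sum to 7651 bases and its longest coding transcript to 2911. By that length Prkcz stood highest in MaxKO, followed by Prkcd at rank 2 and Prkca at rank 3.

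**Figure D2:**
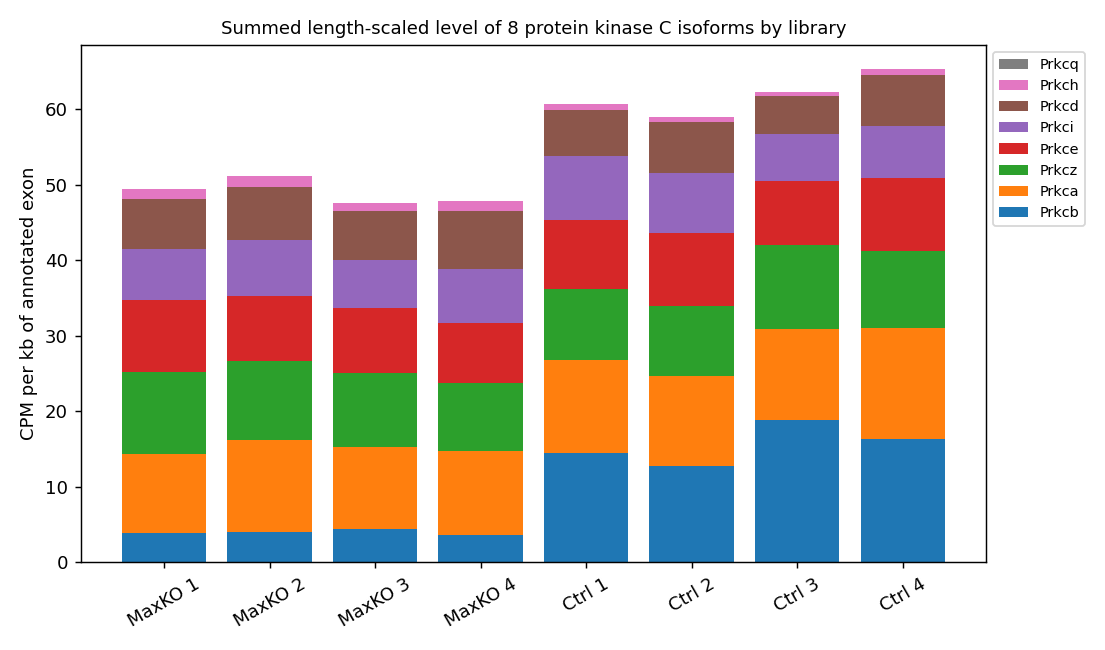
CPM per kb of annotated exon of the 8 listed PKC isoforms, stacked for each of the 4 MaxKO and 4 Ctrl libraries. The Prkcb share (lowest segment) is 7.57% to 9.33% in MaxKO libraries and 21.6% to 30.2% in Ctrl libraries.

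Summed over the 8 isoforms, the length-scaled level was 49.0 ± 1.64 CPM per kb in MaxKO and 61.8 ± 2.69 CPM per kb in Ctrl (SD, n = 4 each). Without Prkcb, the sums were 45.0 ± 1.69 in MaxKO and 46.2 ± 2.25 CPM per kb in Ctrl, and their ranges overlapped (43.2 to 47.1 in MaxKO and 43.5 to 49.0 in Ctrl). Prkcb made up 8.18% ± 0.783 of the total in MaxKO and 25.2% ± 3.64 in Ctrl. Prkch made up 2.66% ± 0.262 in MaxKO and 1.08% ± 0.185 in Ctrl.

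The promoters of 6 of the 8 isoforms were at hand from RefSeq (GRCm38.p6, 250 bases before to 50 after a start site); those of Prkce and Prkch were not used here. They were searched on both strands for CACGTG, the canonical site of MYC and MAX pairs, which reads the same on both strands, for GGGCGG, a GC box, and for GGCGGGAA, a form of the E2F site. Of 32851 promoter windows of the same length, 7.15% held the first, 35.7% the second and 2.19% the third. The promoters of the 2 listed classical isoforms are shown because Prkcb and Prkca differed so unlike each other, and that of Prkcd because it was the only isoform window with a CACGTG. Capitals mark CACGTG and GGGCGG matches on either strand. No isoform window held GGCGGGAA.
Prkcb, chr7:122288875-122289174, plus strand: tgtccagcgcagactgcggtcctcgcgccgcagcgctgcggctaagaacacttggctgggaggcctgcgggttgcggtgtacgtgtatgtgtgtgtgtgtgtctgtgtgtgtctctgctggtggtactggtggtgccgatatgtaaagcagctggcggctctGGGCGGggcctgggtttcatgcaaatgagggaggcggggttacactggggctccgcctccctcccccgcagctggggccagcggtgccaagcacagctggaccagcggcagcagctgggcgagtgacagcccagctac
Prkca, chr11:108343839-108344138, minus strand: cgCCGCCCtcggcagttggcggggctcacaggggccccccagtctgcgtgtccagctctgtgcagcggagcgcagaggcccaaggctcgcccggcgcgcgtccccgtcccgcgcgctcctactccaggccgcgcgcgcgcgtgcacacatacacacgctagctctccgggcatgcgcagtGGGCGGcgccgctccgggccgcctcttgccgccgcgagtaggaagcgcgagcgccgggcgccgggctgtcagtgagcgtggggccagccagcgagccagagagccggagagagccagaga
Prkcd, chr14:30626159-30626458, minus strand: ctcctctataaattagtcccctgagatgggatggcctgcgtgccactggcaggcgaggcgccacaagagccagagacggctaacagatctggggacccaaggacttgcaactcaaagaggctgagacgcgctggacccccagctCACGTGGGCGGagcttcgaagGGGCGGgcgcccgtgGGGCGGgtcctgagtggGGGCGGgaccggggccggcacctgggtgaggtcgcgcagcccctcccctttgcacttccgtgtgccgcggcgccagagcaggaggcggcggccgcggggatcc
The Prkcb window held 1 GC box, starting at position -88 from the start site, and the Prkca window held 2, at -248 and -70. In the Prkcd window, CACGTG began at -106, and its last base was the first base of a GC box at -101; 3 further GC boxes followed at -85, -70 and -53. The windows shown were rich in G and C, at 65.3% for Prkcb, 75.3% for Prkca and 69.3% for Prkcd, against a median of 52.7% over all windows. Another Prkcd window, at chr14:30610261-30610560, held no match of the sites searched and was at 51.3% G and C. A match of these letters describes the sequence and does not show that a factor binds there.

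The 10 genes whose pattern over the 8 libraries was most like that of Prkcb were Rhoa, Nt5e, Pex13, Parp11, Pus10, Nicn1, Pmepa1, Fam81a, Aard and Tcta. They were chosen among 11123 genes as those with the smallest root mean square difference in centred log2 CPM, which was 0.194 for Rhoa and 0.237 for Tcta, against a median of 1.00 over all candidates. Because the pattern of Prkcb is mostly a difference between the groups, likeness to it is mostly a like difference. Rhoa, the gene of a GTPase that organises the actin cytoskeleton, was at 32, 32, 41.9 and 41.3 CPM in MaxKO and at 152, 132, 147 and 143 CPM in Ctrl (log2 difference -1.97, SE 0.11). Nt5e, which encodes the surface enzyme that makes adenosine from AMP, was at 7.41, 9.69, 7.59 and 6.89 CPM in MaxKO and 34.2, 29.3, 34.2 and 41.9 CPM in Ctrl (-2.15, SE 0.14). The other isoforms were far less like Prkcb, from 0.895 for Prkca to 1.49 for Prkch.

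**Figure D3:**
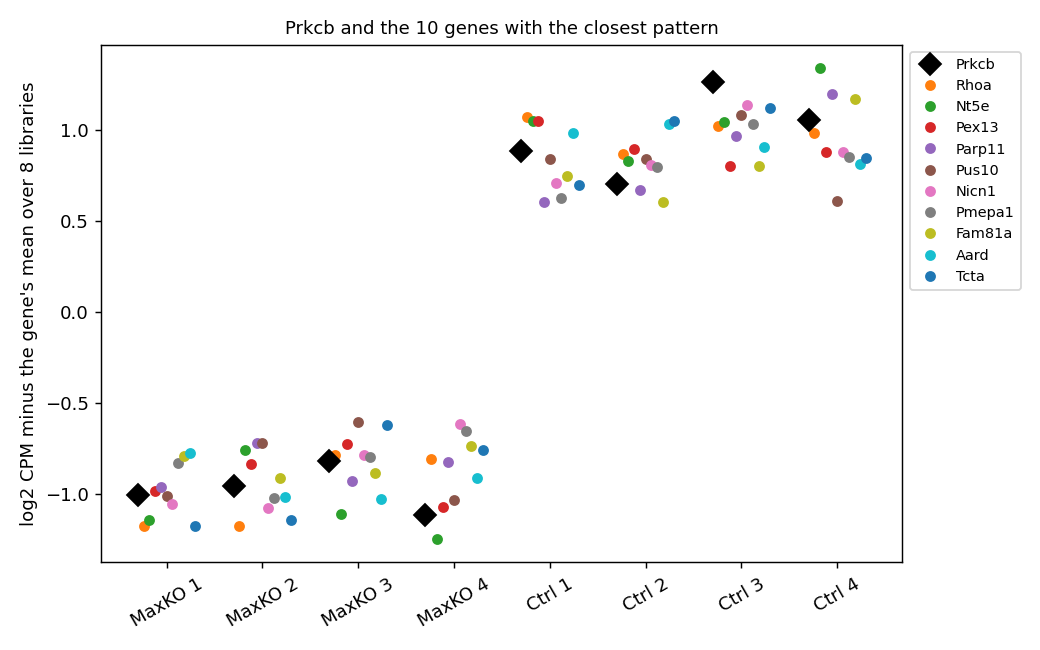
Log2 CPM of Prkcb (black diamonds) and of the 10 most similar genes (circles) in each library, each centred on its own mean over the 8 libraries. The points of the 4 MaxKO libraries lie below 0 and those of the 4 Ctrl libraries above 0 for all 11 genes, and Prkcb is highest in Ctrl 3.

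Positions were then compared, since several of these genes are neighbours in RefSeq (GRCm38.p6). This comparison was chosen after the values were seen. Over all genes, 23.1% were called in edgeR's test. None of the 10 nearest tested neighbours of Prkcb on chromosome 7, with 5 on each side, was called. Their log2 differences lay between -0.47 for 4930413G21Rik and 0.07 for Plk1, the mitotic kinase gene next to Prkcb. Of the 10 nearest tested neighbours of Prkch, 1 was called, Tmem30b (0.80). Of the 10 around Prkca, 1 was called higher and 3 lower, and of the 10 around Prkce, 3 were called lower. Around each of Prkcd, Prkci and Prkcz, 1 of 10 was called. Rhoa, Nicn1 and Tcta lie in 1 stretch of chromosome 9, where 8 of the 10 nearest tested neighbours of Rhoa also fell, beside 12.2% of all genes. These were Dag1, Nicn1, Amt, Tcta, Gpx1, Usp4, Klhdc8b and Ccdc71, with log2 differences between -2.34 and -1.46. Nicn1 and Tcta among them had already been picked for their likeness to Prkcb. Bsn (-0.26) and Ccdc36 (0.05) did not pass the threshold. Pex13 and Pus10 (-1.71) are next to each other on chromosome 11, where the next tested genes on either side, 0610010F05Rik (-0.17) and Papolg (-0.29), were not called.

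**Figure D4:**
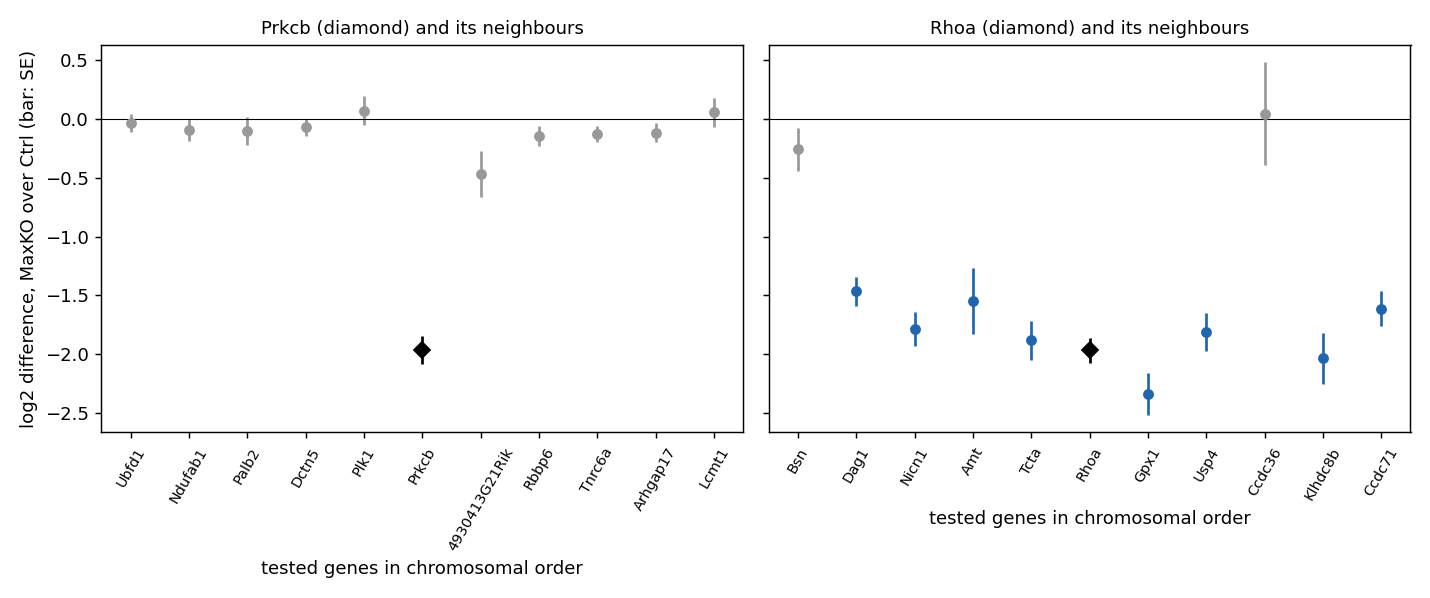
Log2 difference, MaxKO over Ctrl, of Prkcb (left, diamond) and Rhoa (right, diamond) and of the 5 nearest tested genes on each side in chromosomal order, with SE bars and genes called lower in blue. The neighbours of Prkcb lie between -0.47 and 0.07, whereas 8 of 10 neighbours of Rhoa lie at -1.46 or below.

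Genes that act with PKC were followed in 11 lists by role, with 108 genes in all, of which 93 passed the filter. Of these 93, 12 rose and 14 fell in MaxKO (28%, beside 23.1% of all genes), and 67 did not pass the threshold. Their median log2 difference was -0.02, and that of all genes was 0.00. With upper-quartile scaling the split was 9 higher and 18 lower. The counts depended on single libraries: 5 to 7 rose without any 1 MaxKO library or without Ctrl 2 and 8 without Ctrl 1, 13 and 18 rose without Ctrl 3 and Ctrl 4, and 8 fell without MaxKO 1. With Ctrl 1 and 2 alone, 20 rose and 32 fell. The counts of single lists below rest on 3 to 20 tested genes each. They stand beside the 23.1% of all genes called and are a description only.

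Among the closest relatives of PKC, 1 of 7 tested fell. Prkd1, which encodes protein kinase D1, a kinase that PKC phosphorylates, was at 15.8, 17.5, 14.2 and 14.1 CPM in MaxKO and 22.3, 19.8, 18.4 and 21.8 CPM in Ctrl. It fell without overlap (log2 difference -0.42, SE 0.11, edgeR adjusted p = 0.0134). Prkd3 was at 4.96 ± 0.830 CPM in MaxKO and 11.1 ± 8.61 CPM in Ctrl (SD, n = 4 each), and its log2 difference of -1.14 did not pass the threshold (edgeR adjusted p = 0.0736).

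Upstream of PKC, the genes that make and remove diacylglycerol changed in single members. Of 8 phospholipase C genes tested, 2 rose. Plcb4, an enzyme driven by Gq, was at 185, 212, 189 and 180 CPM in MaxKO and at 107, 113, 109.5 and 168 CPM in Ctrl (log2 difference 0.62, SE 0.13, edgeR adjusted p = 0.00635). The groups did not overlap, and Ctrl library 4 lay apart from the other 3. Plch2 rose by 1.89 (log2) at low levels, 2.04 to 2.79 CPM in MaxKO and 0.0601 to 1.46 CPM in Ctrl (adjusted p = 0.0216). Its size depended on the controls, at 3.5 with Ctrl 1 and 2 alone 1.08 with Ctrl 3 and 4 alone and 2.87 without Ctrl 4, and its call ended without MaxKO 1, 2 or 3 or Ctrl 1 (adjusted p up to 0.0704).

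Of the 3 tested Gq subunit genes, 0 were called by edgeR or limma-voom, 2 had an unadjusted p under 0.05, and DESeq2 called 2; Gnaq was at -0.20 and Gna11 at -0.18 on the log2 scale. Of 3 inositol trisphosphate receptor genes, which release calcium from internal stores, 1 fell. Itpr3 was at 5.06, 6.10, 4.88 and 5.55 CPM in MaxKO and at 12.2, 12.9, 36.0 and 7.91 CPM in Ctrl (-1.66, SE 0.41, edgeR adjusted p = 0.0147). Ctrl 3 set much of this size, which was -1.02 without it, and the call ended with Ctrl 3 and 4 alone (adjusted p = 0.0658) and without the filter on low counts (adjusted p = 0.0749). Of 9 diacylglycerol kinase genes, 2 fell, both at low level: Dgki (-0.88) was at 1.66 ± 0.334 CPM in MaxKO and 3.06 ± 0.584 CPM in Ctrl, and Dgkb (-1.18) was at 0.611 ± 0.352 CPM in MaxKO and 1.36 ± 0.297 CPM in Ctrl (SD, n = 4 each). The call of Dgkb ended without MaxKO 1, 2 or 4 or Ctrl 1 or 3 (edgeR adjusted p up to 0.126), and that of Dgki ended without MaxKO 1 (adjusted p = 0.0551). The kinase genes Dgkz (0.24) and Dgkd (0.07) did not pass the threshold.

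Some members of the RASGRP, chimaerin and UNC13 families share with PKC the C1 domain that binds diacylglycerol. Of 7 genes of these families tested, 3 fell and 1 rose. Whether the product of each of them binds diacylglycerol was not examined. Chn2, the gene of beta-chimaerin, which switches off the GTPase RAC, was at 6.94, 8.23, 9.08 and 10.8 CPM in MaxKO and at 28.7, 30.5, 25.1 and 28.2 CPM in Ctrl. No library of the 2 groups came near the other (log2 difference -1.69, SE 0.13, edgeR adjusted p = 1.8e-05). Chn1, the gene of alpha-chimaerin, was at 0.464 ± 0.0599 CPM in MaxKO and 4.21 ± 2.75 CPM in Ctrl (SD, n = 4 each; -3.14). Rasgrp2, an exchange factor for Rap, fell by 0.83 (log2). It was no longer called without MaxKO 2, 3 or 4 or Ctrl 3 or 4 (edgeR adjusted p as high as 0.123), nor with Ctrl 1 and 2 alone (-0.38, adjusted p = 0.187). Unc13b, a vesicle priming gene, rose by 0.37 (log2), but leaving out any library other than Ctrl 4 ended the call (adjusted p up to 0.126). The related Unc13a was at 134 ± 12 CPM in MaxKO and 111 ± 14.4 CPM in Ctrl (SD, n = 4 each; edgeR adjusted p = 0.0730).

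**Figure D5:**
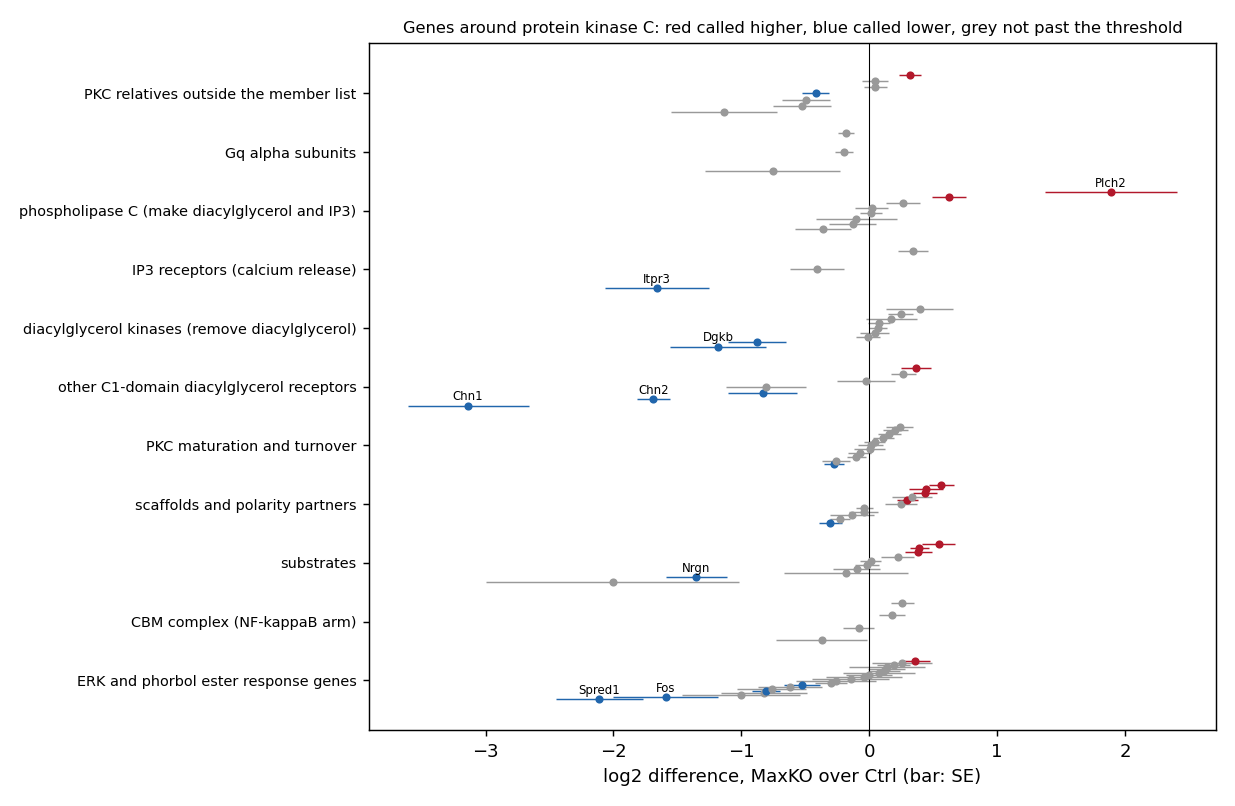
Log2 difference, MaxKO over Ctrl, with SE bars, of the 93 tested genes in 11 lists around PKC; red points were called higher in MaxKO, blue points lower, and grey points did not pass an adjusted p of 0.05. Calls lie on both sides of 0, with Chn1 (-3.14) and Spred1 (-2.11) the lowest and Plch2 (1.89) the highest.

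Of 11 tested genes that fold, phosphorylate and degrade PKC, 1 fell (9.1%, beside 23.1% of all genes called). This was Mlst8, a subunit of both mTOR complexes (-0.27, edgeR adjusted p = 0.0250). It was not past the threshold without MaxKO 1, 2 or 4 (adjusted p up to 0.0719). Pdpk1, the kinase of the PKC activation loop, was at 109 ± 9.93 CPM in MaxKO and 108 ± 12.5 CPM in Ctrl (SD, n = 4 each; 0.01). Of 11 scaffold and polarity genes tested, 4 rose and 1 fell. Llgl2, a basolateral polarity gene whose product is phosphorylated by atypical PKC, was at 105, 94.8, 92.7 and 103 CPM in MaxKO and at 68.7, 70.0, 54.2 and 74.9 CPM in Ctrl (log2 difference 0.56, SE 0.10, edgeR adjusted p = 0.00182). Its groups did not overlap, with Ctrl 3 the lowest. Akap12, a scaffold that binds PKC, rose by 0.44 (edgeR adjusted p = 0.00625). Wwc1, which encodes KIBRA, a partner of atypical PKC, also rose by 0.44 (edgeR adjusted p = 0.0321). It was outside the naming rule and chosen after its values were seen. Its groups were barely apart, at 51.0 to 56.3 CPM in MaxKO and 30.9 to 50.2 CPM in Ctrl. The call of Wwc1 ended with upper-quartile scaling and was not followed with single libraries left out. Pard3 rose by 0.30 (log2) and Pard6a fell by 0.30, both of them partners of the atypical isoforms in the PAR complex. Both calls ended without MaxKO 1, 2 or 3 or Ctrl 1 or 2 (edgeR adjusted p up to 0.0874 for Pard3 and 0.108 for Pard6a). The PKC scaffold gene Gnb2l1, which encodes RACK1, was at 1109 ± 50.6 CPM in MaxKO and 1144 ± 189 CPM in Ctrl (SD, n = 4 each; -0.04).

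Of 10 tested substrate genes, 3 rose and 1 fell. The 3 that rose were the adducin genes, whose products cap actin filaments at the membrane skeleton. Add1 was at 258, 271, 264 and 233 CPM in MaxKO and 188, 188, 195 and 211 CPM in Ctrl, without overlap (log2 difference 0.39, SE 0.08, edgeR adjusted p = 0.00322). Add3 (0.54, adjusted p = 0.00965) and Add2 (0.38, adjusted p = 0.0234) also rose, and the call of Add2 ended without any 1 MaxKO library or without Ctrl 1 or 2 (adjusted p up to 0.0739). Nrgn, the gene of the calmodulin-binding protein neurogranin, was at 1.46, 1.06, 1.08 and 1.6 CPM in MaxKO and 4.08, 3.91, 2.71 and 2.64 CPM in Ctrl, and fell (-1.35, SE 0.24, edgeR adjusted p = 0.00193). Marcks, the best known PKC substrate gene, was at 518 ± 18.5 CPM in MaxKO and 514 ± 40.3 CPM in Ctrl (SD, n = 4 each; 0.01).

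Downstream, the adaptor genes that link PKC to NF-kappaB gave 0 calls of 4 tested in edgeR, with 1 at an unadjusted p under 0.05 and 1 called by each of DESeq2 and limma-voom. Of 20 tested genes that respond to ERK signalling or phorbol ester, 1 rose and 4 fell. The 1 that rose was Spry1 (0.36, edgeR adjusted p = 0.0414), chosen after its values were seen. Its groups overlapped, at 28.5 to 36.2 CPM in MaxKO and 21.4 to 30.2 CPM in Ctrl. The call of Spry1 ended with upper-quartile scaling and was not followed with single libraries left out. Dusp1, a phosphatase that restrains MAP kinases, was at 31.3, 37.1, 33.3 and 27.6 CPM in MaxKO and 63.1, 62.5, 50.7 and 49.8 CPM in Ctrl (log2 difference -0.81, SE 0.11, edgeR adjusted p = 0.000472). All MaxKO values were below all Ctrl values, and Ctrl 3 and 4 lay below Ctrl 1 and 2. Spred1, an inhibitor of RAS signalling, fell by 2.11 (log2) at a low level, 0.642 ± 0.295 CPM in MaxKO and 2.76 ± 0.849 CPM in Ctrl (SD, n = 4 each). The immediate early gene Fos was at 3.65, 5.97, 3.46 and 4.21 CPM in MaxKO and at 18.9, 19.6, 4.46 and 8.70 CPM in Ctrl. It fell (-1.59, edgeR adjusted p = 0.0173), but Ctrl 3 lay within the MaxKO range, and with Ctrl 3 and 4 alone the difference was -0.64 (adjusted p = 0.129). The call of Fos also ended without MaxKO 1, MaxKO 3 or Ctrl 1 (adjusted p up to 0.0562), without the filter (adjusted p = 0.0809) and in limma-voom (adjusted p = 0.0508). Jun fell by 0.52 with all libraries and by 0.27 with Ctrl 3 and 4 alone, where the call ended (adjusted p = 0.107), as it did without MaxKO 1 or MaxKO 3 (adjusted p up to 0.0611). Egr1 was at 165 ± 27.2 CPM in MaxKO and 165 ± 41.3 CPM in Ctrl (SD, n = 4 each; 0.00).

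Markers of other cell types were mostly near 0 in both groups. Of 5 endothelial markers, Vwf rose (0.81) and stood at 635 ± 50.1 CPM in MaxKO and 362 ± 73.4 CPM in Ctrl (SD, n = 4 each), while Cdh5, Kdr, Tek and Pecam1 stayed at 1.10 CPM or less in every library. Of 6 fibroblast markers, Dcn rose (0.77) and was not near 0, at 55.5 ± 6.78 CPM in MaxKO and 32.3 ± 9.77 CPM in Ctrl. Pdgfra fell (-2.37), at 0.260 ± 0.139 CPM in MaxKO and 1.35 ± 0.639 CPM in Ctrl (SD, n = 4 each). Lum had no read, and Col1a1, Col1a2 and Col3a1 were at 0.403 CPM or less. The 7 markers of other lung epithelium summed to 6.30 to 8.60 CPM in MaxKO and 8.30 to 9.62 CPM in Ctrl, with no read of Krt5.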

How the data were processed

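Libraries were made from 500 ng of total RNA, per the labels' protocols. The deposited values are whole-number counts of reads for each gene symbol, which the authors made with bcl2fastq 1.8.4, TopHat2 2.0.12 and HTSeq 0.6.1 on the mm9 genome, per the submitters' processing notes; for the annotation and the strand setting: not given in the sources used here. HTSeq's summary rows were left out of library sizes and made up 18.5% to 23.4% (reads outside exons) and 1.00% to 1.11% (ambiguous) of uniquely aligned reads. The deposited counts were filtered with filterByExpr (13358 genes kept), scaled with TMM factors and compared in R 4.3.3 with edgeR 4.0.16 (robust quasi-likelihood test, group as the only term, Benjamini-Hochberg adjustment over all tested genes, called at an adjusted p under 0.05); the procedure was tested on simulated counts. A standard error is the log2 fold change divided by the root of its F.

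Members and lists were chosen with earlier results of these data known. The text names the isoforms, up to 4 called genes with the smallest p of each list, and the 10 genes most like Prkcb with a mean log2 CPM of 1 or more, leaving out predicted and clone names (log2 CPM with a prior count of 2). Genes named although not called were added after their values were seen. Symbols were matched through RefSeq synonyms. Replicate numbers were not used as a term, since the labels give them no shared origin. No pair of libraries held the same counts. The alternatives tried were scaling by RLE or by upper quartile, no filter, a minimum of 1 CPM in 4 libraries, limma-voom (limma 3.58.1), DESeq2 1.42.0, a non-robust fit, a replicate term, leaving out each library, and keeping only Ctrl 1 and 2 or Ctrl 3 and 4. Some results of the lists are not reported here.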

Additional observations from a re-analysis of the deposited data

Results flagged for a closer look

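In 3 of the 62 groups of 4 libraries examined, 1 library lay far from the other 3, judged by Dixon's test at 95%; chance alone gives about 1 in 20. Ctrl library 4 held 132 CPM of Prkca, against 107 to 111 CPM in the other 3 Ctrl libraries. The same library held 168 CPM of Plcb4, against 107 to 113 CPM in the others. Ctrl library 1 held 27.9 CPM of Akap12, against 34.1 to 35.3 CPM in the others. None of these libraries turned a direction: when single libraries were left out in turn, Prkca lay between -0.24 and -0.12, Plcb4 between 0.55 and 0.80, and Akap12 between 0.36 and 0.47 on the log2 scale.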

How the results depend on the processing

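Over 18 alternatives, the log2 difference of Prkcb lay between -2.14 and -1.77 and that of Prkch between 0.85 and 1.02. Prkcb was at -1.77 with Ctrl 1 and 2 alone and at -2.14 with Ctrl 3 and 4 alone. With Ctrl 1 and 2 alone, 2 isoforms were called lower, Prkci being the second, and the setting gave 2987 genes higher and 3081 lower over all genes, and 20 higher and 32 lower in the lists around PKC; the cause was not tested. Leaving out 1 library gave 963 to 1846 genes higher and 1139 to 1929 lower, 5 to 18 list genes higher and 8 to 20 lower, 1 isoform higher and 1 lower in each fit, and -2.06 to -1.86 for Prkcb. Upper-quartile scaling gave 1160 genes higher and 1965 lower and put the median log2 difference over all genes at -0.05. Of the 26 list genes called, 26 were called by DESeq2, 24 by limma-voom, 23 with upper-quartile scaling (27 calls in all) and 20 with the replicate block (22 calls in all). Same-numbered libraries did not deviate together (correlations of -0.20 to 0.00, against -0.22 to 0.20 for differently numbered ones). No pairing by number was seen, but these few correlations cannot exclude it. With the replicate block, Dgkb (edgeR adjusted p = 0.0598), Rasgrp2 (0.0543), Unc13b (0.0691), Mlst8 (0.0608), Pard3 (0.0525) and Pard6a (0.0843) were not past the threshold. Without the filter, Dgkb (edgeR adjusted p = 0.0528) and Unc13b (0.0505) were lost beside Itpr3 and Fos. With upper-quartile scaling, Unc13b (0.0690), Spry1 and Wwc1 were lost. In limma-voom, Rasgrp2 (0.0584) was lost beside Fos. With Ctrl 3 and 4 alone, Dgkb (0.0798), Unc13b (0.203), Pard3 (0.0869), Pard6a (0.187) and Add2 (0.163) were lost beside Itpr3, Fos and Jun. Genes under about 1 CPM, such as Dgkb, rest on few reads, and the level of Prkcq was not detectable at this depth.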
